A study of Homo sapiens with 3 samples.

Results

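Epithelial-mesenchymal transition markers, 10 genes that between them name the epithelial and mesenchymal states of a cell and the transcription factors that move cells between these states, were followed in A549 cells after transfection with *miR-139-5p* or *miR-139-3p*. The markers were *CDH1* and *EPCAM* on the epithelial side, *CDH2*, *VIM* and *FN1* on the mesenchymal side, and the transcription factor genes *ZEB1*, *ZEB2*, *SNAI1*, *SNAI2* and *TWIST1*. They were chosen by name, and every probe whose RefSeq accession maps to one of these symbols was taken. This gave 15 probes for the 10 genes, out of 31100 probes for 22435 genes with a RefSeq symbol on the array. Of these genes, 6 were read by 1 probe each.

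A549 is an established human lung adenocarcinoma cell line. Total RNA was hybridised to 1-colour Agilent arrays, with 1 array for each of 3 groups, all grown in the same medium. Mock cells received the transfection reagent (RNAiMAX) and no miRNA. The other groups received a *miR-139-5p* or a *miR-139-3p* precursor with the same reagent at 10 nM. This dose stands in the methods and not in the labels, which also leave out the time between transfection and harvest, and no array carried a negative control miRNA. All arrays thus come from 1 line, and the differences below are differences between single arrays, with no spread between cultures and no test.

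In an epithelial-mesenchymal transition, cells lose E-cadherin junctions and apical-basal polarity, and take up N-cadherin, vimentin filaments and a fibronectin matrix. The Snail, Slug, Twist and ZEB proteins are transcription factors that bind E-box elements and repress *CDH1* and other epithelial genes, while the *miR-200* family holds back *ZEB1* and *ZEB2*. In carcinoma cells the transition is often partial, so that epithelial and mesenchymal markers are found in the same cell. Both strands of the *miR-139* hairpin are loaded into the silencing complex, and each strand reads its own set of targets through its seed.

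The mature sequences are shown because the strands share no seed. Both are 23 bases long, are written 5′ to 3′ from RefSeq (GRCh38.p14), and have bases 2 to 8, the seed, in capitals. *miR-139-3p* lies on the minus strand at chr11:72615066-72615088 and *miR-139-5p* on the minus strand at chr11:72615102-72615124.
hsa-miR-139-3p: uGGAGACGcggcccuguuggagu
hsa-miR-139-5p: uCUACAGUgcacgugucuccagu

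Signals are the background-subtracted brightness of a probe in the scanner's units. Their 75th percentile was 93.6 in mock, 88.9 with *miR-139-5p* and 81.0 after *miR-139-3p*. Log2 fold changes were taken after each array was divided by this percentile, and a gene counted as past the threshold where its log2 fold change was beyond 0.5 in either direction. A printed error is the scanner software's own error of each signal, about 10% for a bright spot, carried to the log2 fold change. It covers no difference between cultures. Where a probe was spotted 10 times (300 probes), the spots had a median SD of 0.05 to 0.06 on the log2 scale. Over all genes with several probes, the SD between these had a median of 0.28 for *miR-139-3p* against mock, 0.15 for *miR-139-5p* against mock and 0.26 between the miRNAs.

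Slide 1 held the arrays of mock and *miR-139-5p*, and slide 2 that of *miR-139-3p*, so that slide and *miR-139-3p* cannot be told apart. Between 48.1% and 53.1% of spots were well above background, and no spot was saturated. Outlier spots were most frequent with *miR-139-3p* (1526, against 614 in mock and 935 with *miR-139-5p*). On the *miR-139-3p* array, ERCC control spots, most of which were dim on every array, were well above background in 7.91% of 1176 cases, against 2.55% in mock and 1.70% with *miR-139-5p*. The 99th percentile of these spots was 22.4 with *miR-139-3p*, 7.97 in mock and 7.72 for *miR-139-5p*, and dim signals are to be read against these levels.

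The array was checked for the cell type. All 4 simple epithelium keratins (*KRT7*, *KRT8*, *KRT18*, *KRT19*) were well above background on every array, and the brightest probe of each gave signals from 8322 to 73823 in mock. Of 7 fibroblast genes, *COL1A1* and *PDGFRB* were well above background on each array, and *COL1A2*, *COL3A1*, *DCN*, *LUM* and *PDGFRA* were not on any. The summed signal of the fibroblast genes was 54.5 in mock, 114 with *miR-139-5p* and 40.4 after *miR-139-3p*, of which *COL1A1* alone gave 40.1, 101 and 22.7. The summed signal of the keratins was 147223 in mock, 103114 with *miR-139-5p* and 78391 after *miR-139-3p*. After scaling, 3 of the 4 keratins were lower than mock past the threshold in each comparison. With *miR-139-3p* the log2 fold changes were -1.097 for *KRT7*, -0.74 for *KRT8*, -0.84 for *KRT18* and 0.18 for *KRT19*, and with *miR-139-5p* they were -0.12, -0.85, -0.77 and -0.52. Of the 3 leukocyte genes with a matched probe, 2 were well above background in mock and with *miR-139-5p*, whereas all 3 were after *miR-139-3p*. The third, *CD3E*, read 5.64 there, and the *PTPRC* probes 13.7 and 20.1, all below the ERCC level of 22.4. *CD14* was the brightest of these, at 292 in mock, 304 with *miR-139-5p* and 64.0 after *miR-139-3p*. The 4 endothelial genes summed to 23.8 in mock, 20.1 with *miR-139-5p* and 38.6 after *miR-139-3p*.

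With *miR-139-3p*, 5 of the 9 markers with a value (*CDH2*, *FN1*, *ZEB1*, *SNAI1* and *TWIST1*) were lower than in mock past the threshold, and *EPCAM* alone was higher past it. All 5 belong to the mesenchymal genes or the transcription factors. The median log2 fold change of the 9 markers was -0.60, against -0.05 over all genes with a value. Shifts past the threshold were common on this array: 27.9% of all genes with a value were lower than mock and 26.5% were higher, beside 55.6% and 11.1% of the markers. With normexp, another background correction, only *CDH2* and *SNAI1* stayed lower past the threshold, beside 2932 of 15424 genes. *FN1* (-0.38), *ZEB1* (-0.37) and *TWIST1* (-0.29) did not. *SNAI2* had no value in any comparison.

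With *miR-139-5p*, 7 of the 9 markers stayed within the threshold. *CDH1* was lower and *ZEB2* was higher, and the median log2 fold change of the markers was 0.17, against -0.01 over all genes. In this comparison 12.3% of all genes were lower past the threshold and 10.7% higher, beside 11.1% of the markers in each direction, which is close to these shares. Both comparisons use the same mock array.

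**Figure D1:**
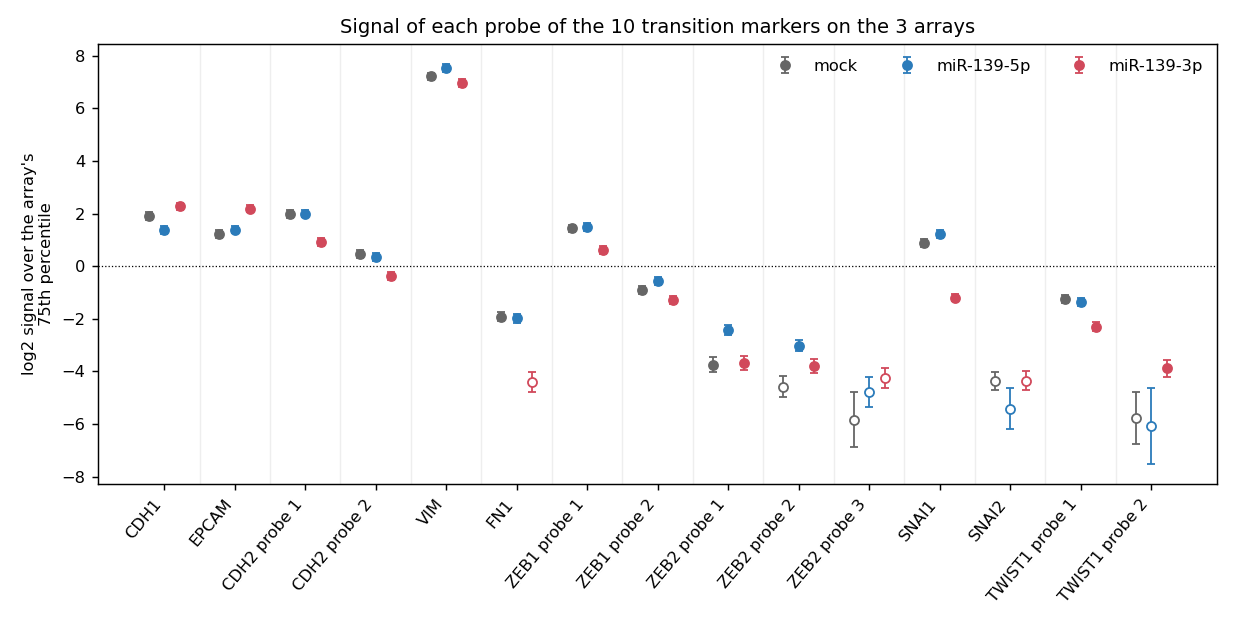
Signal of each of the 15 marker probes on the mock (grey), *miR-139-5p* (blue) and *miR-139-3p* (red) arrays, 1 array each, as log2 over the 75th percentile of the array (dotted line at 0). Bars are the scanner software's error and open circles are probes not well above background. The *CDH2* and *SNAI1* points of the *miR-139-3p* array lie below both other arrays, the *EPCAM* point lies above them, and the *CDH1* points spread to both sides of mock.

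*CDH1* encodes E-cadherin, the adhesion protein of epithelial junctions. Its probe was printed in 10 spots, of which 9 were used on each array, and the mean signals were 351 in mock, 230 with *miR-139-5p* and 391 after *miR-139-3p*. Single spots ran from 321 to 390 in mock, from 213 to 248 with *miR-139-5p* and from 357 to 415 with *miR-139-3p*. The spots of the *miR-139-5p* array were thus all below those of both other arrays, while spots of the mock and *miR-139-3p* arrays overlapped before scaling. After scaling, *CDH1* was at 68.9% of mock with *miR-139-5p* (log2 fold change -0.54, error 0.20), and at 128.5% of mock with *miR-139-3p* (log2 fold change 0.36, error 0.20). The first value passes the threshold narrowly, and it did not with spike-in scaling (-0.42) or with normexp, another background correction, whereas the second value does not pass it, although it did with quantile normalization (0.52), with percentile scaling over the commonly detected probes (0.5004) and with the deposited values (0.52). Against *miR-139-5p*, *CDH1* was higher with *miR-139-3p* by a log2 fold change of 0.90 (error 0.20).

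*EPCAM* encodes an epithelial cell surface glycoprotein. Its single probe gave 218 in mock, 233 with *miR-139-5p* and 369 after *miR-139-3p*. The mock and *miR-139-5p* signals differed by less than the error, and the *miR-139-3p* signal was the highest. The log2 fold change against mock was 0.97 (error 0.20) with *miR-139-3p* and 0.17 (error 0.20) with *miR-139-5p*. Of *CDH1* and *EPCAM*, only *CDH1* passed the threshold with *miR-139-5p*, narrowly, and only *EPCAM* with *miR-139-3p*. With spike-in scaling or normexp, neither passed it with *miR-139-5p*. With *miR-139-3p*, *EPCAM* was higher than mock while the keratin genes *KRT7*, *KRT8* and *KRT18* were lower.

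*CDH2* encodes N-cadherin, which replaces E-cadherin in mesenchymal cells. One of its probes gave 129 in mock, 114 with *miR-139-5p* and 62.3 after *miR-139-3p*. The other gave 367 in mock, 354 with *miR-139-5p* and 152 after *miR-139-3p*. Both probes were lowest on the *miR-139-3p* array, with log2 fold changes of -0.84 and -1.06 against mock, and the gene's mean was -0.95 (SD between probes 0.15, n = 2 probes). With *miR-139-5p* the mean was -0.04 (SD 0.09), within the error.

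*FN1* encodes fibronectin, a matrix glycoprotein. Its only probe carries the accession of a short transcript, 1 of 18 RefSeq transcripts of the gene, and which of them it reads was not checked, so that the values may concern a short form only. The probe was dim, at 24.8 in mock and 22.5 with *miR-139-5p*. On the *miR-139-3p* array it read 3.83, which was not well above background. For the missing level, the lowest signal well above background on the array stood in where it was the higher. On this floor, the *FN1* probe was at least 4.98-fold lower than mock and at least 4.74-fold lower than *miR-139-5p*. That lowest signal was 4.32, under the 22.4 of the ERCC control spots of the array, and the mock signal of 24.8 is itself close to the latter. With the ERCC level as the floor, no lower limit on the fall follows. With normexp, which adds an offset to each signal, the log2 fold change against mock was -0.38 and no longer past the threshold. With *miR-139-5p* the log2 fold change was -0.07 (error 0.23).

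*VIM* encodes vimentin, the intermediate filament of mesenchymal cells. Its probe gave 13846 in mock, 16504 with *miR-139-5p* and 10141 after *miR-139-3p*. These are far above background on every array, in cells that also gave bright keratin signals. Against mock, the log2 fold change was -0.24 (error 0.20) with *miR-139-3p* and 0.33 (error 0.20) with *miR-139-5p*, neither past the threshold. Against each other, *VIM* was lower with *miR-139-3p* by a log2 fold change of -0.57, and this did not pass the threshold with 3 of the alternative settings (-0.41 for the value nearest to 0).

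*SNAI1* encodes Snail, a zinc finger repressor of *CDH1*. Its probe gave 173 in mock, 206 with *miR-139-5p* and 35.5 after *miR-139-3p*. The *miR-139-3p* array stood far below the others, at 23.7% of mock (log2 fold change -2.07, error 0.21), which placed *SNAI1* at percentile 1.37 of all genes with a value. Under every alternative setting *SNAI1* stayed past the threshold, and the value nearest to 0 was -1.22 with normexp. With *miR-139-5p* the log2 fold change against mock was 0.33 (error 0.20).

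*ZEB1* encodes a zinc finger and homeodomain repressor. One probe gave 253 in mock, 251 with *miR-139-5p* and 124 after *miR-139-3p*. The other gave 49.97 in mock, 60.4 with *miR-139-5p* and 33.2 after *miR-139-3p*. Both were lowest with *miR-139-3p*, but to different degrees, with log2 fold changes of -0.82 and -0.38 against mock. The mean of the 2 probes was -0.60 (SD 0.31), and it was not past the threshold with percentile scaling over the commonly detected probes or with normexp (-0.37). With *miR-139-5p* the mean was 0.21 (SD 0.20).

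*TWIST1* encodes a basic helix-loop-helix factor. Its brighter probe gave 39.5 in mock, 34.5 with *miR-139-5p* and 16.3 after *miR-139-3p*, a log2 fold change of -1.06 (error 0.23) with *miR-139-3p* and -0.12 (error 0.21) with *miR-139-5p* against mock. Its other probe went the opposite way, at 1.71 in mock and 1.33 with *miR-139-5p*, where it was not well above background, and 5.48 with *miR-139-3p*, where it was. All *miR-139-3p* signals of *TWIST1* lie below the 22.4 reached by the ERCC control spots of that array. With no filter on dim probes the mean of both probes turned to 0.41 against mock, and with normexp the change was -0.29.

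*ZEB2*, the close relative of *ZEB1*, was read by 3 probes near background. Of its probes for the coding transcript, one gave 7.01 in mock, 16.7 with *miR-139-5p* and 6.27 after *miR-139-3p*. The other gave 3.92 in mock, where it was not well above background, 10.99 with *miR-139-5p* and 5.83 after *miR-139-3p*. Both were highest on the *miR-139-5p* array. In mock and after *miR-139-3p* they lay below the ERCC levels of 7.97 and 22.4. The log2 fold change of the probe measured on both arrays was 1.32 (error 0.35) with *miR-139-5p* and 0.05 (error 0.40) with *miR-139-3p*. The first value was 0.28 with normexp, and the second ranged from -0.50 with the deposited values to 0.81 with no filter on dim probes, changing sign with 4 of the alternative settings. The third probe, for a non-coding transcript, was not well above background on any array.

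*SNAI2*, which encodes Slug, was not well above background on any array. Its probe gave 4.55 in mock, 2.09 with *miR-139-5p* and 3.97 after *miR-139-3p*, all below the ERCC level of its array, and no fold change is given.

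**Figure D2:**
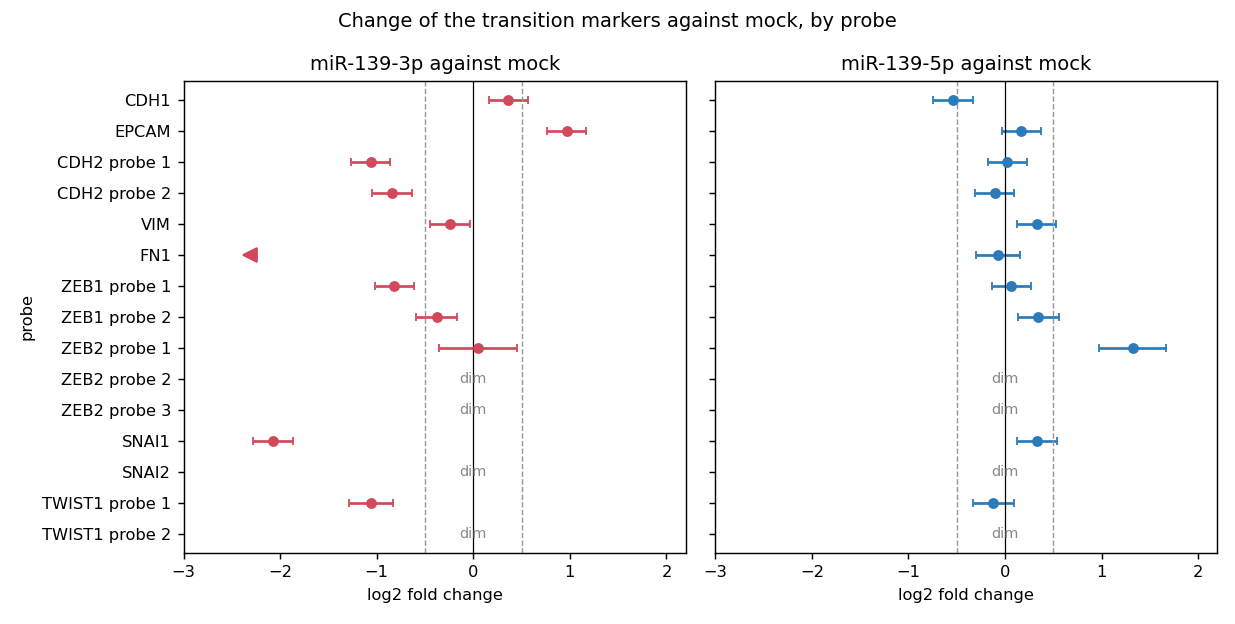
Log2 fold change of each marker probe against mock with *miR-139-3p* (left) and *miR-139-5p* (right), 1 array per group. Bars are the scanner software's error, dashed lines the threshold of 0.5, the triangle the bound for *FN1*, and "dim" marks probes not well above background on both arrays. On the left, *SNAI1* lies at -2.07 and *EPCAM* at 0.97, and on the right *CDH1* (-0.54) and a *ZEB2* probe (1.32) are beyond the dashed lines.

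Compared directly, all 9 markers with a value differed past the threshold between the miRNAs. *CDH1* and *EPCAM* were higher with *miR-139-3p*, and the other 7 (*CDH2*, *VIM*, *FN1*, *ZEB1*, *ZEB2*, *SNAI1* and *TWIST1*) were lower. The median log2 fold change of the 9 was -0.91, against -0.03 over all genes. Of all genes with a value, 26.4% were higher and 27.9% lower past the threshold in this comparison, beside 22.2% and 77.8% of the markers. *SNAI1* differed by -2.40 (error 0.21). For *FN1* only a bound of -2.24 is at hand, which does not hold with the ERCC level as the floor. *ZEB2* differed by -1.03 (SD between probes 0.35, n = 2). With normexp, *ZEB2* (-0.12), *FN1* (-0.39) and *TWIST1* (-0.27) were not past the threshold. The *EPCAM* difference was 0.80, and with spike-in scaling it was 0.49 and not past the threshold. That of *VIM* (-0.57) was not past it with quantile normalization, the deposited values or percentile scaling over the commonly detected probes. The *TWIST1* difference was -0.94 from its brighter probe, and 0.62 with no filter on dim probes. This comparison shares its arrays with both comparisons against mock and is not independent of them.

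**Figure D3:**
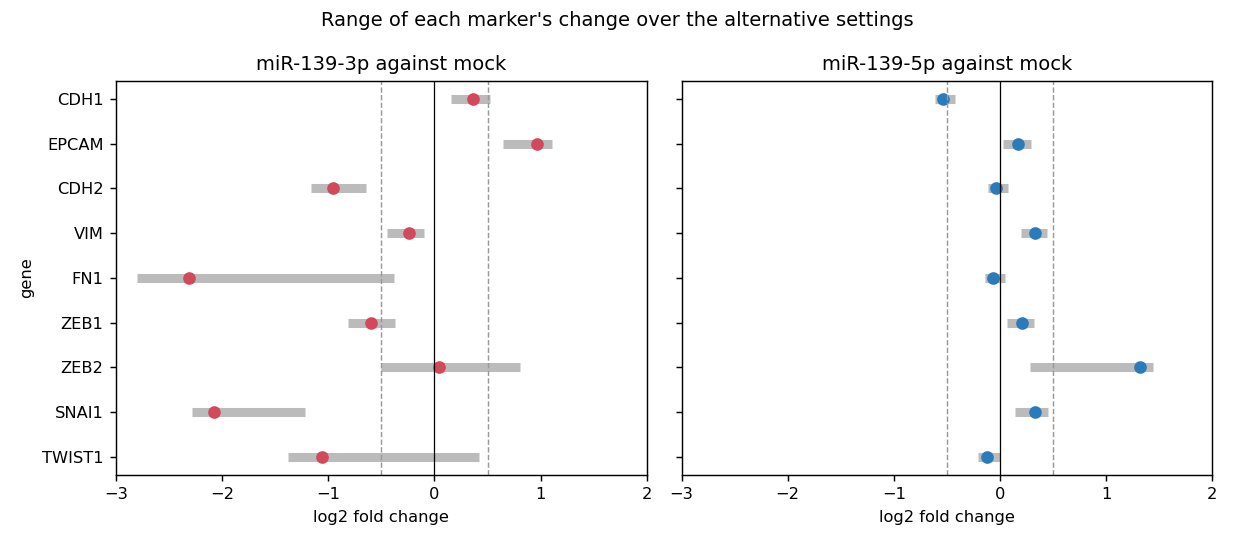
Log2 fold change against mock of the 9 markers with a value, as reported (points) and its range over up to 12 alternative settings (grey bars), with *miR-139-3p* on the left and *miR-139-5p* on the right, and dashed lines at 0.5. The bars of *SNAI1* (-2.28 to -1.22), *CDH2* (-1.16 to -0.65) and *EPCAM* (0.65 to 1.105) stay beyond the lines on the left, and that of *TWIST1* (-1.38 to 0.41) crosses 0.

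The E-box letters CACCTG and their reverse complement CAGGTG, the core to which the ZEB and Snail families are known to bind, were searched for in RefSeq promoter windows (GRCh38.p14, 250 bases before to 50 bases after the start site). Of 35116 windows of all genes, 20.6% held the 6 letters on either strand. Windows were at hand for *CDH2*, *VIM*, *FN1*, *ZEB1* and *ZEB2*. The set of windows used held none for *CDH1*, *EPCAM*, *SNAI1*, *SNAI2* and *TWIST1*, so their promoters were not searched. The letters were in 2 of 7 *ZEB1* windows and in none of the windows of the other 4 genes. The *ZEB1* matches are shown with the letters in capitals, each as 30 bases on the plus strand, because *ZEB1* was both a marker here and a reader of this element. A match of letters is a description of the sequence, and binding was not measured.
ZEB1, chr10:31318348-31318377, match at -57 from the start site: ccgaggtgacagCAGGTGagggccgggtgc
ZEB1, chr10:31318966-31318995, match at -242 from the start site: ccccaccaCACCTGaggaaaacttttccct
ZEB1, chr10:31319119-31319148, match at -85 from the start site: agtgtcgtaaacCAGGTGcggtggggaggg
ZEB1, chr10:31319236-31319265, match at 33 from the start site: tggcggatggcccCAGGTGtaagcgcagaa

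The other genes of the transition were read from 4 lists with 121 genes in all. With *miR-139-3p*, the epithelial junction and polarity genes were read first. Of 37 with a value, 12 were higher and 11 lower than mock past the threshold, and their median log2 fold change was -0.04. These are 32.4% and 29.7% of the list, close to the 26.5% and 27.9% of all genes. The highest of the measured genes were *CDS1* (1.72), a phospholipid enzyme, *PATJ* (1.51), a polarity scaffold, and *DSC2* (1.41), a desmosomal cadherin. The lowest were *CLDN2* (-2.46) and *CLDN4* (-1.71), which are tight junction claudins, and *PPL* (-1.68), which encodes periplakin and read 43.0 in mock and 11.6 with *miR-139-3p*, below the ERCC level of 22.4. The *CLDN2* signal was 671 in mock, 1672 with *miR-139-5p* and 106 after *miR-139-3p*. Both *CDS1* probes and the *DSC2* probe were dim, at 9.04 to 11.3 in mock and 21.4 to 31.8 with *miR-139-3p*, near the 22.4 of the ERCC control spots.

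Of 12 epithelial programme regulators with a value, 7 were lower and 3 higher after *miR-139-3p*, with a median of -0.70. These are 58.3% and 25% of the list, beside 27.9% and 26.5% of all genes. *ELF3* (-1.69), an epithelial ETS factor, *FOXA2* (-1.24), a forkhead factor of lung epithelium, and *RBM47* (-0.95), an RNA-binding protein, were the lowest. *ELF3* read 2181 in mock, 1404 with *miR-139-5p* and 585 after *miR-139-3p*. The grainyhead factors *GRHL1* (1.41) and *GRHL3* (1.11) were the highest, while their relative *GRHL2* was among the lower genes with a bound of -0.70. The other higher gene, *ESRP1*, was a bound of 0.62. At the threshold of 0.5 the list thus held more genes lower than mock than higher, while *EPCAM* was higher. At a threshold of 1, only *ELF3* and *FOXA2* stayed lower, and only *GRHL1* and *GRHL3* higher.

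Of 33 mesenchymal matrix, cytoskeleton and surface genes with a value, 12 were lower and 4 higher after *miR-139-3p*, with a median of -0.32. These are 36.4% and 12.12% of the list, beside 27.9% and 26.5% of all genes. The lowest were *VCAN* (-1.22), the proteoglycan versican, *CDH6* (-1.16), a cadherin, and *COL5A1* (-1.09, SD between probes 0.16), a fibrillar collagen. The genes *ACTA2* (1.83), smooth muscle actin, *CCN2* (1.47), a matricellular protein, and *PDGFRB* (0.94), a growth factor receptor, went the other way. *ACTA2* read 138 in mock, 73.3 with *miR-139-5p* and 426 after *miR-139-3p*. *PDGFRB* was dim on every array, at 6.91 in mock and 11.5 with *miR-139-3p*, both below the ERCC levels. *CDH6* read 13.3 in mock and 5.17 with *miR-139-3p*, the latter also below. *CD44* (-0.58) and *NES* (-0.97) are counted as lower, but 1 of the probes of each was near 0 (0.08 and -0.06). *BGN*, counted as higher, is a bound of 0.58.

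Of 15 other transition transcription factors with a value, 6 were lower and 2 higher after *miR-139-3p*, with a median of -0.28. These are 40% and 13.3% of the list, beside 27.9% and 26.5% of all genes, and both higher genes (*SNAI3* and *KLF8*) are bounds from a probe detected on 1 array. *FOXQ1* (-2.48), a forkhead factor, was the lowest, at 291 in mock, 411 with *miR-139-5p* and 45.2 after *miR-139-3p*. *SOX9* (-0.99), which read 21.6 with *miR-139-3p* and so just below the ERCC level, and *TCF4* (-0.76), an E protein, followed. *TWIST2* is counted as lower (-0.72), but its 2 probes went opposite ways (-1.999 and 0.56).

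With *miR-139-5p*, the mesenchymal list held the most genes past the threshold of the 4 lists. Of 32 genes with a value, 10 were higher and 6 lower than mock, with a median of 0.31. These are 31.25% and 18.75% of the list, beside 10.7% and 12.3% of all genes. The highest were the collagens *COL1A1* (1.41), *COL4A1* (1.19) and *COL5A2* (1.17). *COL5A2* read 1877 in mock, 4019 with *miR-139-5p* and 1296 after *miR-139-3p*. The lowest were *TAGLN* (-1.17, SD between probes 0.05) and *MYL9* (-1.11), both of the contractile cytoskeleton, and *AXL* (-1.01), a receptor tyrosine kinase. At a threshold of 1, only *COL1A1*, *COL4A1* and *COL5A2* stayed higher, and only *TAGLN*, *MYL9* and *AXL* lower.

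In the same comparison, 5 of 35 junction and polarity genes with a value were higher (14.3%) and 7 lower (20%), with a median of 0.00, beside 10.7% and 12.3% of all genes. With spike-in scaling 9 were higher and 7 lower, with no scaling 3 and 8, and with normexp 3 and 2. *CLDN2* (1.39), *CGN* (0.65), which encodes cingulin, and *PATJ* (0.64) were the highest, and *PPL* (-1.06), *NECTIN4* (-0.98), a nectin that read 6.72 with *miR-139-5p*, below the ERCC level of 7.72, and *CLDN7* (-0.93) the lowest. Of 11 epithelial programme regulators, 1 was higher (9.09%) and 3 lower (27.3%), with a median of 0.04, and *KLF5* was at 0.62, *GRHL3* at -0.78 and *ELF3* at -0.56. Of 14 other transition factors, 3 were higher (21.4%) and 2 lower (14.3%), with a median of 0.02. *SOX9* was at 1.099, *FOXQ1* at 0.57, *TCF3*, an E protein, at -1.05 and *TCF4* at -0.57. *HMGA2*, a chromatin protein, was at 0.76, but its 3 probes ranged from 0.07 to 1.61.

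**Figure D4:**
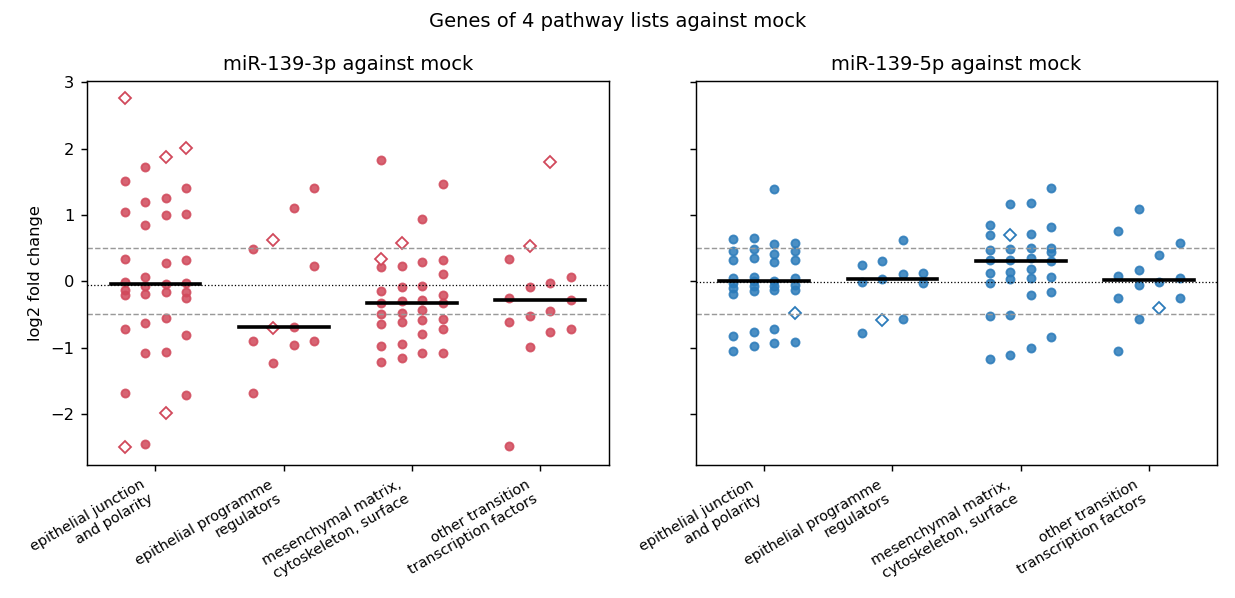
Log2 fold change of the genes of the 4 pathway lists against mock with *miR-139-3p* (left) and *miR-139-5p* (right), 1 array per group. Each circle is a gene measured on both arrays, each diamond a bound, black bars are list medians, the dotted line is the median of all genes and dashed lines mark 0.5. On the left the medians are -0.04, -0.70, -0.32 and -0.28 from left to right, and on the right that of the mesenchymal list is 0.31.

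Between the miRNAs, 19 of 34 mesenchymal genes with a value were lower with *miR-139-3p* than with *miR-139-5p* and 5 were higher, with a median of -0.51. These are 55.9% and 14.7% of the list, beside 27.9% and 26.4% of all genes. The epithelial programme regulators had a median of -1.01, with 6 of 11 lower (54.5%) and 2 higher (18.2%). Of 37 junction and polarity genes, 14 were higher (37.8%) and 11 lower (29.7%), with a median of 0.00. This balance turned with spike-in scaling (10 higher and 14 lower), and the counts were 15 and 7 with percentile scaling over the commonly detected probes and 6 and 7 with normexp. Of 15 other transition factors, 4 were lower (26.7%, close to all genes) and 2 higher (13.3%), with a median of -0.18.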

How the data were processed

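RNA of mock-transfected A549 cells and of cells given either strand of *miR-139* was read on 3 arrays. The authors deposited spot intensities from Agilent Feature Extraction 12.1.1.1 (per the file headers), with background subtracted and no normalization between arrays. They also deposited log2 values per probe, which equalled the quantile-normalized log2 signals (median absolute difference 0.003) and served as an alternative.

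The log2 signal minus the log2 of each array's 75th percentile over spots other than controls was used. Outlier spots were left out, and spots of a probe were averaged. A probe was well above background where at least 50% of its spots were. A gene's change was averaged over all of its probes that were well above background on both arrays. Where a gene had none, it was a bound from its brightest probe detected on 1 array. Percentages of all genes cover the 15570, 15015 and 15425 genes with a value in the 3 comparisons. The threshold was 0.5 on the log2 scale.

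Genes were named through the probe's RefSeq accession (24747 of 25277 NM accessions matched, assembly GRCh38.p14). Probe coordinates are not given, because the array was designed on another build. The markers and lists were chosen with earlier results of these data known. Named genes were all markers and, per list and comparison with mock, up to 3 highest and 3 lowest measured genes past the threshold. *OVOL2* and *CD68* had no matched probe. With 1 array per group no test was possible, and precision is limited by how few arrays there are. The scripts were tested on simulated data. Python 3.11.15, pandas 2.3.3, R 4.3.3 and limma 3.58.1 were used.

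The alternatives changed the scaling, the background correction, the treatment of dim probes, how probes were combined into genes, the outlier spots, the source of values or the threshold.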

Additional observations from a re-analysis of the deposited data

How the results depend on the processing

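In all, 13 alternatives were run, 1 of which was chosen after seeing the data (only probes above the 99th percentile of ERCC control spots on at least 1 array). Of the markers' changes under these, 283 moved by less than the typical probe-to-probe spread (the median SD given in the text) and 35 by more. Part of the 283 could not move, because for a gene with 1 usable probe each way of combining probes gives the same value. With 2 usable probes the mean and the median are equal as well. Among values past the threshold, 2 changed sign, both for *TWIST1* with no filter on dim probes (0.41 for *miR-139-3p* against mock and 0.62 for *miR-139-3p* against *miR-139-5p*). Of values within the threshold, *ZEB2* changed sign under 4 alternatives (*miR-139-3p* against mock), and with *miR-139-5p*, *CDH2* under 3 and *FN1* under 2. Of other counts, 255 stayed within 1.5 times and 57 did not. The causes were not tested.

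Markers lower with *miR-139-3p* than mock numbered 5, with normexp 2 and at a threshold of 1, 3. Those higher numbered 1, and 2 with quantile normalization, with percentile scaling over commonly detected probes only (the narrow percentile), with no filter or with the deposited values, and 0 at a threshold of 1. With *miR-139-5p*, 1 was lower, and 0 with spike-in (E1A) scaling, normexp or a threshold of 1, and 2 with no filter. Its 1 higher marker was lost with normexp (0). Between the miRNAs, the 7 lower became 4 with normexp and 3 at a threshold of 1, and the 2 higher became 1 with spike-in scaling, 4 with no filter and 0 at a threshold of 1.

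Over all genes, *miR-139-3p* against mock gave 4338 lower and 4129 higher. At a threshold of 1 these were 1841 and 1921, and with normexp 2932 and 1552. For *miR-139-5p* there were 1847 lower and 1609 higher. These were 1212 and 2426 with spike-in scaling, 630 and 517 with normexp, and 357 and 288 at a threshold of 1, and 2650 were higher with no filter. Between the miRNAs, 4301 lower and 4075 higher became 6535 and 2665 with spike-in scaling, 2845 and 1585 with normexp, and 1852 and 1977 at a threshold of 1.

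Scaling shifted the median of all genes. With spike-in scaling it was -0.24 for *miR-139-3p* against mock, 0.11 for *miR-139-5p* against mock and -0.35 between the miRNAs, and with no scaling it was -0.26, -0.08 and -0.17. It was 0.13 between the miRNAs with the narrow percentile. Genes higher among those past the threshold made up 48.8%, 46.6% and 48.7% in these 3 comparisons. They made up 35.1%, 66.7% and 28.97% with spike-in scaling, and 34.2% and 33.9% in the first pair with no scaling. With normexp they made up 34.6% for *miR-139-3p* against mock and 35.8% between the miRNAs, and with the narrow percentile 60.5% between the miRNAs. Using only probes detected on all arrays left no value for *FN1*, and the ERCC filter none for *ZEB2* with *miR-139-3p* against mock.

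No paired analysis was possible because each group had 1 array. Signal over background limits *ZEB2*, *SNAI2*, *FN1* and *TWIST1*.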
